A study of Homo sapiens with 23 samples.

Results

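The nuclear genes for respiratory complexes II to V and for cytochrome c were compared between prexasertib-resistant and parental cultures of 4 ovarian cancer cell lines. The 39 genes were taken by their NCBI Gene IDs from a table of 21658 genes, and all 39 were present. They comprise 4 genes of complex II, 9 of complex III, 10 of complex IV, 15 of complex V and the cytochrome c gene CYCS. Prexasertib is an inhibitor of the checkpoint kinase CHK1, and the resistant derivatives of OV-90, Kuramochi, OVSAHO and EFO-21 had been selected by long-term culture in rising concentrations of the drug. Each line was profiled as parental and as resistant cells by stranded mRNA sequencing, in 3 libraries per group except for parental OV-90 with 2, which gives 23 libraries. The labels call the libraries of a group biological replicates without saying whether a resistant derivative was selected more than 1 time, so p-values measure the spread between these libraries.

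Complex II (succinate dehydrogenase) oxidises succinate to fumarate, which ties the tricarboxylic acid cycle to the respiratory chain, and passes the electrons to ubiquinone. Complex III hands electrons from ubiquinol to the mobile carrier cytochrome c, complex IV (cytochrome c oxidase) uses them to reduce oxygen, and complex V (ATP synthase) lets the protons that complexes III and IV moved flow back to make ATP. Complex II is encoded wholly in the nucleus. Cytochrome b of complex III, the catalytic core of complex IV and parts of the proton channel of complex V are encoded in mitochondrial DNA, and those genes were not analysed here, so the values below describe the nuclear share of each complex.

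Expression is given as the deposited log2 value, on which a difference of 1 is a 2-fold change. Resistant minus parental differences were fitted with limma in each line, and a gene was called lower or higher when its p-value, corrected across the whole table of 21658 genes (Benjamini-Hochberg), was under 0.05. Because the values were quantile normalized, a change shared by most transcripts would not be visible. In RNA from whole cultures, fewer cells that express a gene and less of its RNA per cell cannot be told apart.

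The labelled cell type was checked against its markers. Libraries of a group correlated with each other across genes at 0.9524 to 0.9875, and with libraries of another line at 0.8081 at most. The epithelial keratin genes KRT8 and KRT18 were expressed in all 4 lines, and both were called lower in the resistant cells of each line. KRT18 differed by −0.69, −1.13, −0.81 and −0.75 in OV-90, Kuramochi, OVSAHO and EFO-21. KRT7 averaged 2.76 to 3.76 in parental OV-90, Kuramochi and EFO-21 and 11.40 in parental OVSAHO. WT1 was at 1.87 in parental OV-90 and 1.03 in parental EFO-21, and MUC16 at 1.15 in parental OV-90 and 2.48 in parental Kuramochi. Markers of other cells were high in places, with LYZ at 12.06 and LUM at 12.76 in parental OV-90 and PECAM1 at 8.48 in parental EFO-21. Single parental libraries also stood out. In Kuramochi 1 of them had COL1A2 at 5.11, LYZ at 5.90 and CD3E at 3.10. The others had COL1A2 at 0.46 and 0.59, LYZ at 1.31 and 1.87, and CD3E at 0.01. In OV-90 COL1A2 was at 6.70 in 1 parental library and at 1.43 in the other. PAX8, a Mullerian lineage factor, averaged 8.44 to 9.37 in parental Kuramochi, OVSAHO and EFO-21 but 2.10 in parental OV-90. The adhesion gene EPCAM was present in every parental line and averaged 2.69 in resistant Kuramochi and 5.82 in resistant OVSAHO, against 6.47 and 8.83 in their parents. Of the 8 genes listed as ovarian epithelial markers, 2, 7, 6 and 5 were called lower in OV-90, Kuramochi, OVSAHO and EFO-21. The shares of all genes were 17.9%, 23.3%, 16.2% and 23.4%. The largest falls were MECOM in Kuramochi (−5.22) and MUC16 in OVSAHO (−4.59), and the only call of higher was MECOM in OV-90 (1.07). Of the 10 genes listed for other cell types, the number called lower or higher was 1 and 1 in OV-90, 3 and 1 in Kuramochi, 5 and 3 in OVSAHO and 2 and 2 in EFO-21. The part of both lists in the results below was not tested.

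Promoter sequences are shown for 6 of the genes, since several of the factors that are known to drive respiratory genes have short recognisable binding motifs. Windows from RefSeq (GRCh38.p14), running from 250 bases before to 50 bases after the transcription start, were found for 31 of the 39 genes. The NRF1 motif CGCNTGCGC, read on both strands, was present for 12 of these 31 genes (38.7%), against 9.02% of all 27305 genes with a window. The ETS family motif CCGGAAG, the motif of GABPA (NRF2), was present for 15 (48.4%), against 12.2% of all genes. At least 1 of both was found for 22 of the 31 genes, against 19.2% of all genes. The 150 bases before the start are printed 5′ to 3′ on the coding strand for 4 genes that were lower in at least 3 resistant lines (ATP5ME, ATP5PO, COX6B1 and UQCRH) and for 2 complex II genes that were not (SDHD and SDHA). Capitals mark the NRF1 and ETS matches.
ATP5ME (chr4:674277-674426, minus strand): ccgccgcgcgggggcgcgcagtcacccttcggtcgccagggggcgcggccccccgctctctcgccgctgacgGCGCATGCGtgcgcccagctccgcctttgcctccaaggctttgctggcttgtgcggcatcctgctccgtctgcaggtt
ATP5PO (chr21:33915805-33915954, minus strand): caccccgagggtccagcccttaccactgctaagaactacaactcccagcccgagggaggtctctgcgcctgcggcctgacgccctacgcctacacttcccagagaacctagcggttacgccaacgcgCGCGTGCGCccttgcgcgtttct
COX6B1 (chr19:35648173-35648322, plus strand): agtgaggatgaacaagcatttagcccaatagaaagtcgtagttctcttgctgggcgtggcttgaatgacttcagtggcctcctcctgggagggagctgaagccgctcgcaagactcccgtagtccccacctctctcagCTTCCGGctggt
UQCRH (chr1:46303548-46303697, plus strand): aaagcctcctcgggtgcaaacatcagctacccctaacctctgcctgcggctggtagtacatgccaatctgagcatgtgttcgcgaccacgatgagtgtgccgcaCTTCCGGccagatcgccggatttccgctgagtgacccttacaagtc
SDHD (chr11:112086723-112086872, plus strand): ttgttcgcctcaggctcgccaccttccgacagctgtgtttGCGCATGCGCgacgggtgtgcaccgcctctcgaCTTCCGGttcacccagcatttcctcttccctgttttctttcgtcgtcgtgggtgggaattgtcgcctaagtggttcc
SDHA (chr5:218170-218319, plus strand): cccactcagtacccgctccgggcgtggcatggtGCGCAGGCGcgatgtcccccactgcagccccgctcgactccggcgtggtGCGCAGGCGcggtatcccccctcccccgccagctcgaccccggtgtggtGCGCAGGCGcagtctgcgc

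The printed 150 bases of SDHA held 3 NRF1 matches and that of SDHD held 2 overlapping NRF1 matches and 1 ETS match, while those of ATP5ME and ATP5PO held 1 NRF1 match each and those of COX6B1 and UQCRH 1 ETS match each. The full window of ATP5ME also held an ETS match and an E-box. Among all 31 genes, the NRF1 motif was present in 4 of the 12 that were lower in at least 3 lines and in 8 of the other 19. The ETS motif was present in 6 of those 12 and in 9 of the other 19. The YY1 motif ATGGCGG was found for 6 genes (19.4%, against 6.66% of all genes), the NFY motif CCAAT for 13 (41.9%, against 39.7%), the E-box CACGTG for 4 (12.9%, against 8.77%) and the SP1 motif GGGCGGGG for 6 (19.4%, against 26.1%). A match says only that these letters occur in the window.

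Between 17 and 29 of the 39 genes were called lower in the resistant cells, depending on the line. In OVSAHO 29 were called lower and 0 higher, against 16.2% of all genes called lower and 17.1% called higher. In EFO-21 the counts were 22 lower and 3 higher, against 23.4% and 25% of all genes. Kuramochi gave 18 lower and 2 higher, against 23.3% and 23.6%, and OV-90 gave 17 lower and 1 higher, against 17.9% and 18.1%. The lower shares were 43.6%, 46.2%, 74.4% and 56.4% in OV-90, Kuramochi, OVSAHO and EFO-21. For other genes in the members' expression range (10th to 90th percentile) with transcripts of up to 1000 bases they were 50.7%, 26.2%, 32.7% and 56.1%. The share over all 39 members was below that of these short genes in OV-90 and near it in EFO-21, but these sets differ in length. Only 18 of the 39 genes have transcripts that short. Of these 18, 12, 9, 14 and 12 were called lower in OV-90, Kuramochi, OVSAHO and EFO-21. The expression differences were small. Their median over the 39 genes was −0.36 in OV-90, −0.27 in Kuramochi, −0.25 in OVSAHO and −0.19 in EFO-21, while the median of all genes lay between −0.06 and 0.01. Changes of at least 2-fold were made by 16.1% of all genes in OV-90, 22.5% in Kuramochi, 7.76% in OVSAHO and 14.3% in EFO-21, but by only 1, 1, 0 and 2 of the 39 genes, all of them lower. In a fit over all 23 libraries with the line as a block, 25 of the 39 genes were lower on average and 0 higher, against 16.6% and 16.4% of all genes, with no gene of the 39 past 2-fold.

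The OV-90 count rests on few libraries and has to be read with that. It was 17 as fitted and 17 without parental library 2, but rose to 26 without parental library 3 and fell to 0 without any 1 of the resistant libraries 13, 14 and 15. For the OV-90 calls of members described per library below, 24 fits without 1 library kept the call and 41 lost it. The parental libraries themselves differed. The median deviation of the 39 genes from the parental mean was 0.12 in library 2 and −0.12 in library 3, against −0.29 to −0.42 in the 3 resistant libraries. In Kuramochi the parental libraries 4, 5 and 6 lay at −0.20, 0.09 and 0.11, and the resistant libraries 16, 17 and 18 at −0.26, −0.34 and −0.20. Parental library 4 thus reached the level of resistant library 18. Leaving out a library moved the counts of lower genes to 14 to 24 in Kuramochi, 22 to 28 in OVSAHO and 21 to 22 in EFO-21.

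**Figure D1:**
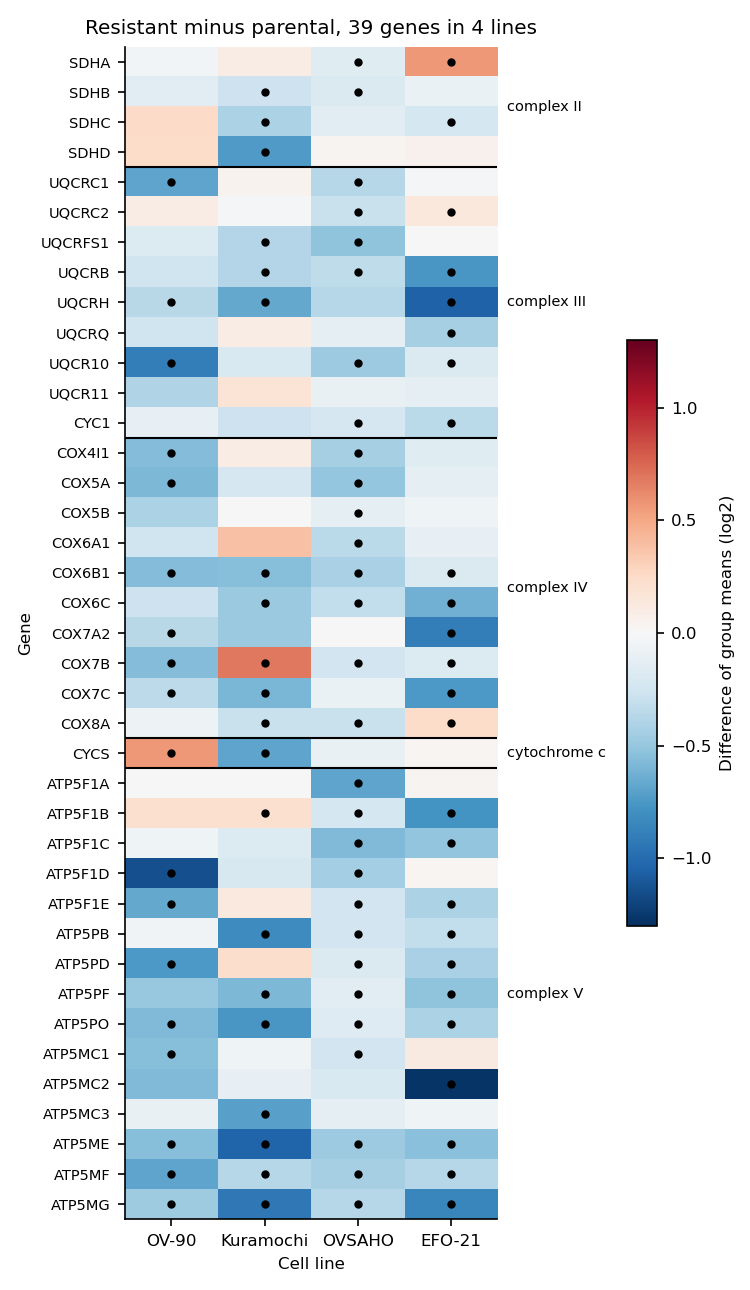
Resistant minus parental difference of group means (log2, colour scale) for the 39 genes (rows, grouped by complex) in the 4 lines (columns), with black dots for genes called at an adjusted p under 0.05. Blue fields with dots run through complexes III, IV and V in all lines, with 29 dots in OVSAHO, all of them on lower genes.

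In complex V, 8, 7, 13 and 11 of the 15 genes were lower in OV-90, Kuramochi, OVSAHO and EFO-21, and 1 was higher in Kuramochi. The median differences were −0.55, −0.21, −0.25 and −0.41 in the same order. On average over the lines, 11 of the 15 were lower. Complex IV had 6, 4, 8 and 5 of 10 genes lower and 1 higher in Kuramochi and in EFO-21, with medians of −0.38, −0.25, −0.31 and −0.17, and complex III had 3, 3, 6 and 5 of 9 genes lower and 1 higher in EFO-21, with medians of −0.26, −0.20, −0.33 and −0.19. Complex II stood at 0, 3, 2 and 1 of 4 genes lower and 1 higher in EFO-21, with medians of 0.10, −0.34, −0.15 and −0.01. Of all genes, 17.9%, 23.3%, 16.2% and 23.4% were lower and 18.1%, 23.6%, 17.1% and 25% higher in the same order. Complex II in EFO-21, with 25% lower, is near that share, and complex III in Kuramochi had 33.3% lower. No test was made between complexes. With the trend with transcript length that is described below taken out, the medians of complexes III and IV in OV-90 turned to 0.01 and 0.12, and those of complexes II and IV in EFO-21 to 0.10 and 0.00, while complex V in OV-90 went from −0.55 to −0.08, the median of all genes in that fit.

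Of the 39 genes, 5 were lower in all 4 lines, a count that went to 0 with the transcript length trend taken out and to 1 (ATP5MF) with the protein length trend taken out. They are COX6B1 of complex IV and ATP5PO, ATP5ME, ATP5MF and ATP5MG of complex V. ATP5ME (subunit e) and ATP5MG (subunit g) sit in the membrane part of ATP synthase, where they take part in joining the enzyme into dimers, and ATP5MF (subunit f) is a neighbouring membrane subunit. ATP5PO (OSCP) couples the catalytic head to the peripheral stalk. COX6B1 lies on the intermembrane face of cytochrome c oxidase. The share of all genes called lower in 3 or 4 lines, or in opposite directions, was not counted. The counts of members over lines therefore have no background here.

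ATP5ME (chromosome 4, 666225 to 668119 in GRCh37, minus strand) had values of 10.24, 10.55 and 10.55 in parental Kuramochi and of 9.35, 9.26 and 9.60 in resistant Kuramochi. The groups did not overlap, and the difference of −1.04 ± 0.12 (SE, adjusted p = 0.000893) was the only one of at least 2-fold among the 39 genes in that line. In EFO-21 the parental values were 10.23, 10.20 and 10.34 and the resistant values 9.72, 9.74 and 9.68, a difference of −0.54 ± 0.04 (adjusted p = 0.000283). OVSAHO gave 11.34, 11.24 and 11.01 against 10.77, 10.73 and 10.69 (−0.47 ± 0.09, adjusted p = 0.00969). All resistant libraries were below all parental ones in each line, OV-90 included, where 11.51 and 11.11 stood against 10.76, 10.83 and 10.72 (−0.55 ± 0.13, adjusted p = 0.0372). Groups without overlap were common. Of all genes, 69.1%, 59.2%, 48.4% and 59.7% did not overlap in OV-90, Kuramochi, OVSAHO and EFO-21, and 37.1%, 30.5%, 23.7% and 29.3% were lower without overlap. For the 39 genes, 29, 18, 32 and 25 were lower without overlap.

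ATP5MG (chromosome 11, 118272061 to 118303993, plus strand) had the same mean difference over the 4 lines as ATP5ME, −0.65. In EFO-21 it fell from 10.57, 10.57 and 10.70 to 9.63, 9.88 and 9.80 (−0.85 ± 0.07, adjusted p = 0.000354). In Kuramochi the parental values of 9.57, 9.99 and 10.05 stood above the resistant values of 8.91, 8.75 and 9.15 (−0.93 ± 0.16, adjusted p = 0.00414). The parental groups of OVSAHO (10.87, 10.61 and 10.60) and OV-90 (10.89 and 10.73) also lay above their resistant groups (10.36, 10.31 and 10.32, and 10.35, 10.36 and 10.34), by 0.37 and 0.46 with adjusted p-values of 0.0155 and 0.0174.

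ATP5MF, ATP5PO and COX6B1 fell by less in at least 1 line. ATP5MF (chromosome 7, 99046098 to 99063809, minus strand) was at 10.81, 10.73 and 10.75 in parental OVSAHO and at 10.41, 10.30 and 10.30 in resistant OVSAHO (−0.43 ± 0.04, adjusted p = 0.00148). In Kuramochi its groups overlapped, with 9.65, 10 and 9.98 against 9.40, 9.45 and 9.67 (−0.37 ± 0.12, adjusted p = 0.0475), and the call there held in 2 of 6 fits that left out 1 library. ATP5PO (chromosome 21, 35275757 to 35288118, minus strand) went from 9.68, 10.05 and 10.11 to 9.13, 9.07 and 9.37 in Kuramochi (−0.76 ± 0.14, adjusted p = 0.00526) but only from 10.24, 10.15 and 10.08 to 9.98, 10.02 and 9.97 in OVSAHO (−0.17 ± 0.05, adjusted p = 0.0362), where 1 of 6 such fits kept the call. COX6B1 (chromosome 19, 36139225 to 36149684, plus strand) fell in OVSAHO from 12.88, 12.78 and 12.80 to 12.44, 12.39 and 12.37 (−0.42 ± 0.04, adjusted p = 0.00144). Its smallest fall was in EFO-21, from 10.97, 11.04 and 11.10 to 10.84, 10.86 and 10.86 (−0.19 ± 0.04, adjusted p = 0.00835), and it became 0.01 there with the trend with transcript length taken out.

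**Figure D2:**
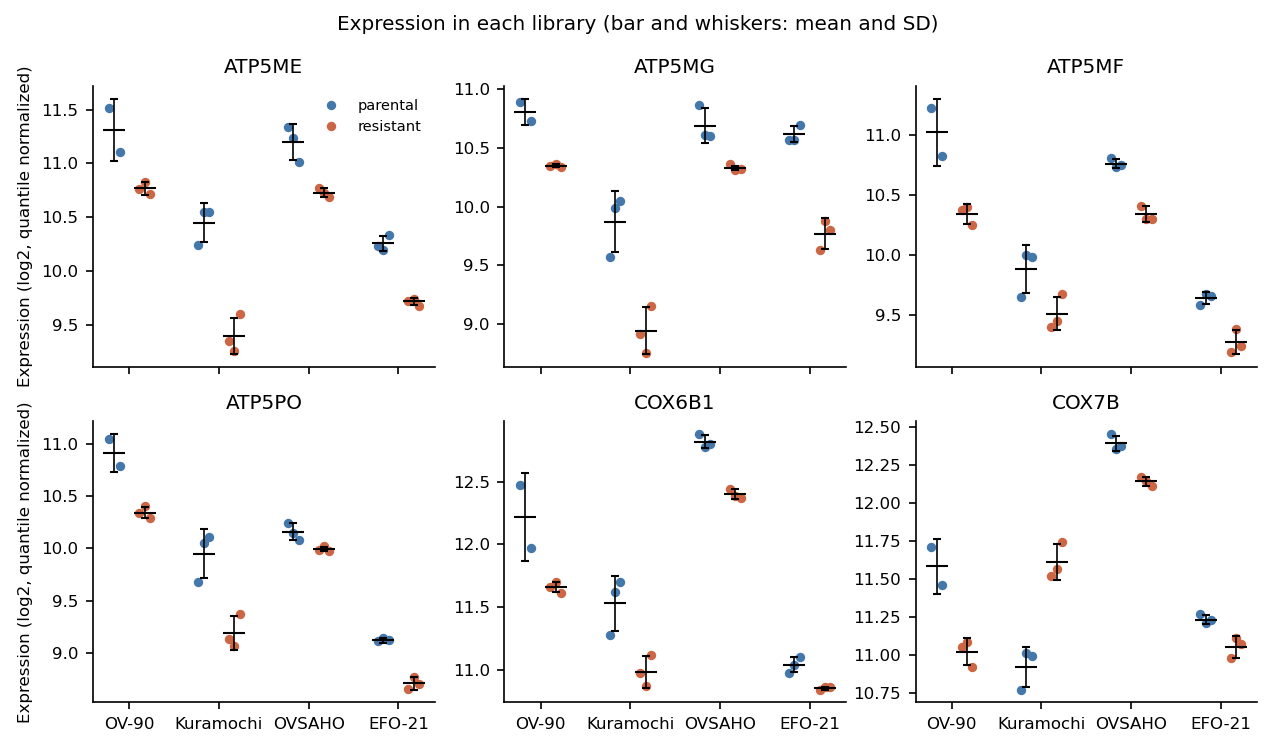
Expression (log2, quantile normalized; vertical axes do not start at 0) of 6 genes in each library of the 4 lines, parental in blue and resistant in orange, with the mean and SD of each group as a bar and whiskers. ATP5ME, ATP5MG, ATP5PO and COX6B1 lie lower in the resistant libraries of every line, ATP5MF does so except for an overlap in Kuramochi, and COX7B lies lower in 3 lines and higher in Kuramochi.

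Another 10 genes were lower in 3 lines. They are UQCRB, UQCRH and UQCR10 of complex III, COX6C, COX7B and COX7C of complex IV, and ATP5F1E, ATP5PB, ATP5PD and ATP5PF of complex V. UQCRB and UQCR10 are small accessory subunits of complex III, and UQCRB is part of its ubiquinone-binding side. UQCRB was at 10.28, 10.19 and 10.26 in parental EFO-21 and at 9.40, 9.53 and 9.53 in resistant EFO-21 (−0.76 ± 0.05, adjusted p = 0.000105), with calls also in OVSAHO (−0.33) and in Kuramochi (−0.38, held in 2 of 6 fits without 1 library). UQCR10 was called in OVSAHO, at 11.24, 11.16 and 11.09 against 10.74, 10.65 and 10.68 (−0.47 ± 0.05, adjusted p = 0.00167), in OV-90 (−0.90 ± 0.17) and in EFO-21 (−0.19 ± 0.05, which became 0.07 with the protein length trend taken out). In Kuramochi its groups overlapped.

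COX6C and COX7C are small membrane subunits of complex IV. COX6C fell in EFO-21 from 10.96, 11.01 and 10.95 to 10.28, 10.37 and 10.43 (−0.62 ± 0.05, adjusted p = 0.000212), and by 0.48 in Kuramochi and 0.32 in OVSAHO. COX7C fell in EFO-21 from 11.34, 11.39 and 11.41 to 10.52, 10.70 and 10.66 (−0.75 ± 0.05, adjusted p = 0.000159) and in Kuramochi from 10.97, 11.35 and 11.31 to 10.60, 10.52 and 10.74 (−0.59 ± 0.12, adjusted p = 0.00689). In OVSAHO, where COX7C was at 13.61, 13.51 and 13.56 against 13.47, 13.51 and 13.43, the groups overlapped and the difference of −0.09 ± 0.05 did not pass (adjusted p = 0.207). The OV-90 call of COX7C (−0.34, adjusted p = 0.0486) held in 1 of 5 fits without 1 library and became 0.16 without the transcript length trend.

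In complex V the peripheral stalk genes ATP5PB (subunit b), ATP5PD (subunit d) and ATP5PF (F6), which hold the head against rotation, were each lower in OVSAHO and EFO-21, though the OVSAHO call of ATP5PF (−0.15) held in 1 of 6 fits without 1 library. ATP5PB fell most in Kuramochi, from 9.69, 9.90 and 9.82 to 8.98, 8.91 and 9.06 (−0.82 ± 0.07, adjusted p = 0.000313). In the same line ATP5PD stood at 8.20, 8.75 and 8.81 in the parent and 8.75, 8.73 and 8.96 in the resistant cells, which overlapped (0.23 ± 0.17, adjusted p = 0.322). ATP5PF was lower in Kuramochi (7.87, 8.21 and 8.23 against 7.58, 7.34 and 7.65, −0.58 ± 0.13, adjusted p = 0.0126). Within the stalk, then, Kuramochi had lower ATP5PB, ATP5PF and ATP5PO but no call on ATP5PD.

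The genes of the catalytic head and central shaft of complex V are described next. ATP5F1A (subunit alpha) was lower in OVSAHO only as a call, from 12.09, 12.07 and 12.18 to 11.38, 11.42 and 11.46 (−0.69 ± 0.04, adjusted p = 0.000282), and its differences in the other 3 lines lay between −0.01 and 0.04. ATP5F1C (gamma, the central shaft) was lower in OVSAHO (−0.57 ± 0.04, adjusted p = 0.000314) and EFO-21 (−0.51 ± 0.08, adjusted p = 0.00296). ATP5F1D (delta, at the foot of the shaft) had the only difference of at least 2-fold in OV-90, from 11.11 and 10.28 to 9.51, 9.68 and 9.47 (−1.14 ± 0.26, adjusted p = 0.033). Its parental OV-90 libraries lay 0.83 apart, and the difference ran from −0.72 to −1.56 over the fits that left out 1 library. In OVSAHO ATP5F1D was lower by less (−0.44 ± 0.05, adjusted p = 0.00213). ATP5F1E (epsilon) was lower in OV-90 (−0.67, held in 1 of 5 fits without 1 library), OVSAHO (−0.25) and EFO-21 (−0.41), and in 0 lines once the protein length trend was taken out.

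Genes of the rotor ring, subunit c, differed by line. The 3 genes ATP5MC1, ATP5MC2 and ATP5MC3 encode the same mature protein with different import peptides. ATP5MC2 gave the largest fall of all 39 genes, in EFO-21, from 9.35, 9.36 and 9.55 to 8.08, 8.15 and 8.23 (−1.27 ± 0.07, adjusted p = 7.52e-05), and its groups overlapped in Kuramochi. ATP5MC3 was lower in Kuramochi, from 11.73, 11.82 and 11.85 to 11.08, 11.06 and 11.15 (−0.71 ± 0.06, adjusted p = 0.000199). ATP5MC1 was lower in OV-90 (−0.55 ± 0.11, adjusted p = 0.0278) and OVSAHO (−0.25 ± 0.04, adjusted p = 0.00616). Whether the 3 genes differ in their response was not tested.

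There were 6 genes called in opposite directions in different lines. For them the interaction F test over 8 group means is given as a description, since they were chosen by calls in the same libraries. It passed for 34 of the 39 members and for 75.1% of all genes. SDHA, the flavoprotein subunit that oxidises succinate, rose in EFO-21 from 9.61, 9.55 and 9.59 to 10.12, 10.16 and 10.13 (0.56 ± 0.03, adjusted p = 6.43e-05). In OVSAHO it fell from 9.57, 9.55 and 9.62 to 9.39, 9.42 and 9.45 (−0.16 ± 0.03, adjusted p = 0.0166), with an interaction adjusted p of 1.05e-07. The iron-sulfur subunit SDHB was at 9.79, 9.79 and 9.87 against 9.62, 9.79 and 9.78 in EFO-21 (−0.09 ± 0.05, adjusted p = 0.218) and was lower in OVSAHO (−0.19) and Kuramochi (−0.27, held in 1 of 6 fits without 1 library). The membrane anchor SDHD was lower in Kuramochi, from 8.74, 8.91 and 8.91 to 8.03, 8.22 and 8.07 (−0.74 ± 0.08, adjusted p = 0.000634), and the other anchor SDHC was lower in Kuramochi (−0.41) and EFO-21 (−0.23).

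COX7B, a small complex IV subunit on the X chromosome, rose in Kuramochi from 10.77, 11.01 and 10.99 to 11.52, 11.56 and 11.74 (0.69 ± 0.09, adjusted p = 0.0016). In OV-90 it fell from 11.71 and 11.46 to 11.05, 11.08 and 10.92 (−0.56 ± 0.10, adjusted p = 0.0233), and smaller differences of −0.25 and −0.18 were called in OVSAHO and EFO-21 (interaction, adjusted p = 1.05e-07), of which the latter became 0.04 with the protein length trend taken out. COX8A, another small subunit of the enzyme, rose in EFO-21 from 14.11, 14.12 and 14.16 to 14.36, 14.38 and 14.38 (0.24 ± 0.04, adjusted p = 0.00517) and fell by 0.29 in both Kuramochi and OVSAHO (interaction, adjusted p = 8.19e-05). The Kuramochi call held in 1 of 6 fits without 1 library.

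CYCS encodes cytochrome c, which carries electrons to complex IV and also triggers apoptosis when it leaks into the cytosol. It fell in Kuramochi from 12.98, 12.79 and 12.81 to 12.19, 12.19 and 12.12 (−0.69 ± 0.07, adjusted p = 0.000513). In OV-90 it was at 12.42 and 12.89 in the parent and at 13.21, 13.24 and 13.20 in the resistant cells (0.56 ± 0.15, adjusted p = 0.0459), a call kept in 2 of 5 fits without 1 library. It became 0.04 with the transcript length trend taken out and 0.94 with the protein length trend taken out. In OVSAHO and EFO-21 its groups overlapped (interaction, adjusted p = 6.04e-06).

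ATP5F1B, the catalytic beta subunit of ATP synthase, fell in EFO-21 from 11.96, 11.87 and 11.99 to 11.09, 11.18 and 11.20 (−0.78 ± 0.05, adjusted p = 9.26e-05) and by 0.23 in OVSAHO. In Kuramochi it was slightly higher in all 3 resistant libraries, at 12.12, 12.18 and 12.14 against 11.88, 11.94 and 12.00 (0.21 ± 0.06, adjusted p = 0.0233, interaction adjusted p = 9.59e-09), a call that held in 2 of 6 fits without 1 library. UQCRC2, a core subunit of complex III, was lower in OVSAHO (10.13, 10.05 and 10.19 against 9.80, 9.83 and 9.87, −0.29 ± 0.04, adjusted p = 0.00465) and higher in EFO-21 (9.61, 9.60 and 9.64 against 9.66, 9.80 and 9.81, 0.14 ± 0.05, adjusted p = 0.0485), with an interaction adjusted p of 0.000164. The EFO-21 call held in 1 of 6 fits without 1 library. The other core subunit, UQCRC1, was lower in OV-90 (−0.69 ± 0.15) and OVSAHO (−0.37 ± 0.04) and at −0.02 in EFO-21.

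Beside these, UQCR11 was called in no line, with differences from −0.39 to 0.18. The remaining members were called lower in 1 or 2 lines. The Rieske iron-sulfur protein UQCRFS1, the electron acceptor site of complex III, was lower in OVSAHO (12.54, 12.57 and 12.51 against 12.09, 12.03 and 11.94, −0.52 ± 0.05, adjusted p = 0.00105) and Kuramochi (−0.38 ± 0.08, adjusted p = 0.0101). CYC1, cytochrome c1, was lower in EFO-21 (−0.35 ± 0.04) and OVSAHO (−0.22 ± 0.05). COX4I1 and COX5A were lower in OV-90 (−0.56 and −0.58) and OVSAHO (−0.43 and −0.50). COX7A2 was lower in EFO-21, from 9.09, 9.14 and 9.11 to 7.99, 8.37 and 8.30 (−0.90 ± 0.10, adjusted p = 0.000857), and in OV-90 (−0.36 ± 0.09, adjusted p = 0.0432), and was at −0.01 in OVSAHO. UQCRQ was lower in EFO-21 only as a call (−0.43), and COX5B (−0.13) and COX6A1 (−0.35) in OVSAHO.

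The level of a single gene, UQCRH, set OVSAHO apart from the other lines. UQCRH, the hinge protein of complex III that helps cytochrome c1 meet cytochrome c, was at 2.67, 2.91 and 2.56 in parental OVSAHO and at 2.31, 2.22 and 2.49 in resistant OVSAHO. In the 17 libraries of the other lines it lay between 7.54 and 9.73, so the highest OVSAHO library was 4.63 below the lowest of the others. For the other 38 genes the largest such gap between the lowest line and the next was 0.65, for CYCS in EFO-21. From 12.1% to 16.3% of all genes lay below UQCRH in the OVSAHO libraries, against 73.2% to 92.6% elsewhere. UQCRH lies at chromosome 1, 46769370 to 46782448 in GRCh37. Its near-identical copy UQCRHL, at chromosome 1, 16133664 to 16135843, may share reads with it, so both values are uncertain, and UQCRHL too was low in OVSAHO alone, at 4.12 to 5.53 against 12.13 to 14.40 in the other lines. The genes next to UQCRH were expressed in OVSAHO, LRRC41 at 8.35 to 8.98 and NSUN4 at 6.60 to 6.69. Of all 21658 genes, 13 had OVSAHO values below every other library by at least as much as UQCRH. These values were singled out after they were seen, and no test was made.

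In the lines that express it, UQCRH was lower in the resistant cells. It fell in EFO-21 from 8.62, 8.69 and 8.69 to 7.65, 7.54 and 7.67 (−1.05 ± 0.05, adjusted p = 4.72e-05) and in Kuramochi from 9.47, 9.73 and 9.68 to 8.93, 8.82 and 9.11 (−0.67 ± 0.11, adjusted p = 0.00278). UQCRHL fell there by like amounts (−0.72 and −0.65). In OV-90 UQCRH was at 9.47 and 9.25 against 9.01, 9.03 and 8.94 (−0.36 ± 0.09, adjusted p = 0.0382) while UQCRHL was at 0.06 ± 0.07, and the UQCRH difference turned to 0.14 without the transcript length trend. In OVSAHO the difference was −0.37 (adjusted p = 0.152).

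**Figure D3:**
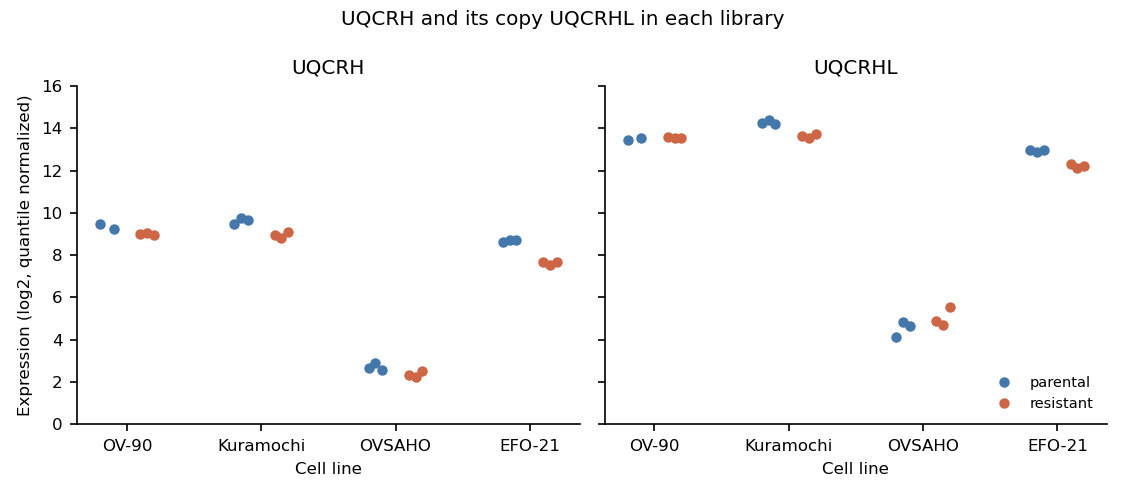
Expression (log2, quantile normalized) of UQCRH and of its copy UQCRHL in each of the 23 libraries, by line, parental in blue and resistant in orange. The 6 OVSAHO libraries lie between 2.22 and 2.91 for UQCRH and between 4.12 and 5.53 for UQCRHL, far below the libraries of the other lines.

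The change moved with the length of the protein and of the transcript, most of all in OV-90. Among other genes above the median expression, the median difference in OV-90 ran from −0.41 for proteins of up to 150 residues through −0.20 and 0.05 to 0.43 for those of over 600 residues. It ran from −0.11 to 0.10 in OVSAHO and from −0.15 to 0.10 in EFO-21, and stayed between −0.03 and 0.01 in Kuramochi. By classes of transcript length the OV-90 medians ran from −0.51, for up to 1000 bases, to 0.55, for over 4000 bases. Those of Kuramochi lay between −0.09, for up to 1000 bases, and 0.01. Of the 39 genes, 23 encode proteins of up to 150 residues. These 23 had median differences of −0.41, −0.37, −0.25 and −0.37 in OV-90, Kuramochi, OVSAHO and EFO-21, against −0.41, −0.03, −0.11 and −0.15 for the 708 other genes of that length. In OV-90 the short genes of the respiratory chain thus had the same median as other genes of that protein length. Of these 23, 12 were called lower there, against 38.1% of the 708. For transcripts of up to 1000 bases, the OV-90 medians were −0.55 for 18 members and −0.51 for other genes above the median expression. Between transcripts of up to 1000 and over 4000 bases, the resistant OV-90 libraries differed by −0.95 to −1.17 relative to the parental mean, while the 2 parental libraries lay at 0.33 and −0.33. On the same measure the parental Kuramochi libraries 4, 5 and 6 lay at −0.39, 0.18 and 0.20, and the resistant ones between −0.21 and 0.17. Parental Kuramochi libraries thus differed in this trend among themselves.

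When each library's trend with transcript length was removed within its line, an alternative chosen after the data were seen, the members called lower numbered 9 in OV-90, 18 in Kuramochi, 22 in OVSAHO and 20 in EFO-21, and those called higher 8, 6, 1 and 4. Of all genes in these fits, 17.8%, 25.7%, 16.4% and 23.6% were lower and 14.8%, 27.2%, 16.3% and 25.4% higher. With the trend over protein length removed instead, the lower counts were 8, 21, 24 and 17 and the higher counts 3, 6, 2 and 6, against 21%, 24.7%, 16.7% and 24.1% of all genes lower and 16%, 25.1%, 17.2% and 24.4% higher. The 9 and 8 lower members in OV-90 are near these shares. Of the 15 genes that were lower in at least 3 lines, 6 stayed so under both corrections, namely UQCRB, COX6C, ATP5PB, ATP5ME, ATP5MF and ATP5MG. On average over the lines 19 and 22 of the 39 genes were then lower. Whether the length trend comes from the RNA or library preparation or from the cells was not tested.

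**Figure D4:**
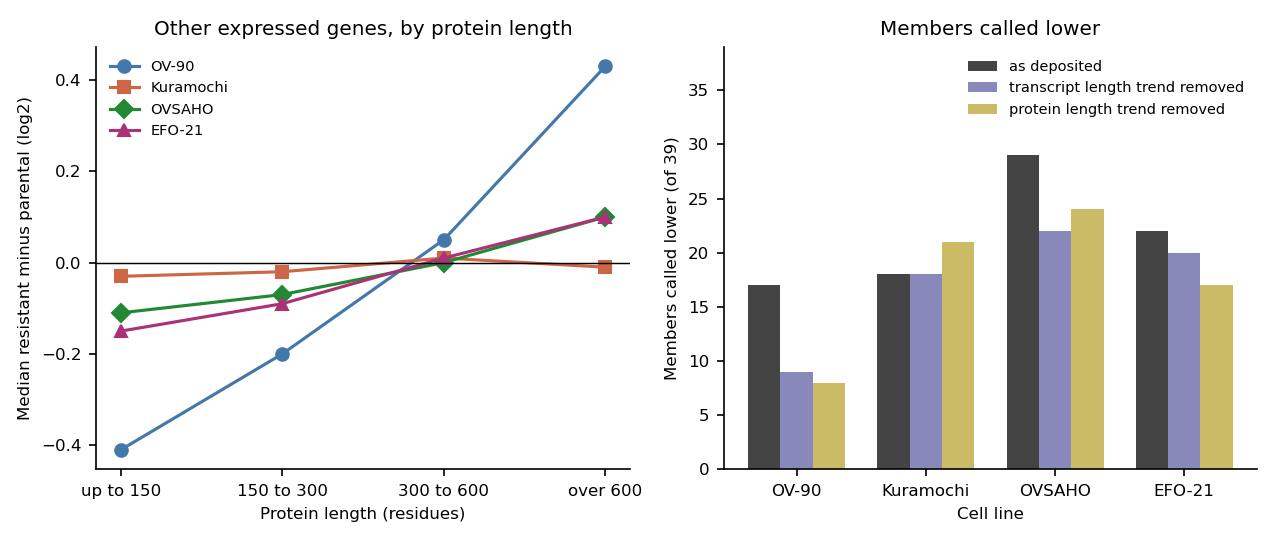
Left, median resistant minus parental difference (log2) of other genes above the median expression, in 4 classes of protein length, for each line. Right, the number of the 39 genes called lower in each line as deposited and with either length trend removed; the OV-90 bar drops from 17 to 9 and 8, and the Kuramochi bar goes from 18 to 18 and 21.

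Neighbouring genes moved with some members. Within 1 Mb of each member, other genes above the median expression had a median difference between −0.56 and 0.85 in OV-90, −1.12 and 0.66 in Kuramochi, −0.41 and 0.82 in OVSAHO and −0.85 and 0.22 in EFO-21. In EFO-21 the 47 neighbours of ATP5F1B had a median of −0.85, close to the −0.78 of the gene, and the 23 neighbours of ATP5MC2, also on chromosome 12, had −0.71 beside its −1.27. In Kuramochi, ATP5MG (−0.93) had neighbours at −0.69, SDHD (−0.74) at −0.53 and ATP5MC3 (−0.71) at −1.12. The rise of COX7B in Kuramochi (0.69) stood beside a median of 0.66 over 5 neighbours. ATP5ME fell in Kuramochi by 1.04, while the median of its 15 neighbours was −0.30, and in EFO-21 its neighbours were at 0.12. Across the 39 genes, 29, 25, 36 and 29 lay below the median of their neighbours in OV-90, Kuramochi, OVSAHO and EFO-21. Gene copy number was not analysed here, and its part in these differences was not tested.

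Other lists of mitochondrial genes were counted in the same fits. The 37 nuclear complex I genes had 24, 8, 29 and 20 lower in OV-90, Kuramochi, OVSAHO and EFO-21, with medians of −0.50, −0.02, −0.24 and −0.23. These are 64.9%, 21.6%, 78.4% and 54.1%, against 17.9%, 23.3%, 16.2% and 23.4% of all genes, so the Kuramochi count is near that share. NDUFS6, an accessory subunit of complex I, was lower in all 4 lines (−1.07, −0.61, −0.39 and −0.23), and NDUFC1 was lower in 3, with −1.48 in EFO-21. In Kuramochi, where complex I was near 0, complexes II to V together stood at −0.27. Genes for the cytosolic ribosome, which are short and abundant as well, had medians of −0.54, −0.05, −0.24 and −0.27, and those for the mitochondrial ribosome −0.51, −0.12, −0.14 and −0.21. In Kuramochi the medians of complex I and of the cytosolic ribosome turned to 0.04 and 0.01 with the transcript length trend taken out. RPL34 and MRPL1, from the 2 ribosome lists, were lower in all 4 lines (−0.29 to −1.35 and −0.46 to −1.10). The enzymes of the tricarboxylic acid cycle did not share one direction, with medians of 0.16, 0.04, −0.20 and −0.05. Within that cycle IDH3B, a subunit of the NAD-dependent isocitrate dehydrogenase, was lower in all 4 lines (−0.26 to −0.74), and IDH2, the NADP-dependent enzyme, was higher in Kuramochi, OVSAHO and EFO-21 (0.61, 0.21 and 0.92). SUCLA2, of succinyl-CoA ligase, was lower in Kuramochi (−1.19) and EFO-21 (−1.17), and IDH3G was lower in 3 lines and higher in Kuramochi (1.06). The 37 pseudogenes of the members, whose reads can overlap with those of their parent genes, had 17, 13, 7 and 10 lower (45.9%, 35.1%, 18.9% and 27.0%) and 1, 1, 2 and 5 higher, of which the OVSAHO and EFO-21 shares of lower genes are near the 16.2% and 23.4% of all genes. The 5 higher ones in EFO-21 were COX6A1P2 (0.14) and the SDHA copies SDHAP1 (0.54), SDHAP2 (0.61), SDHAP3 (0.82) and SDHAP4 (0.53). No list was tested against another.

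**Figure D5:**
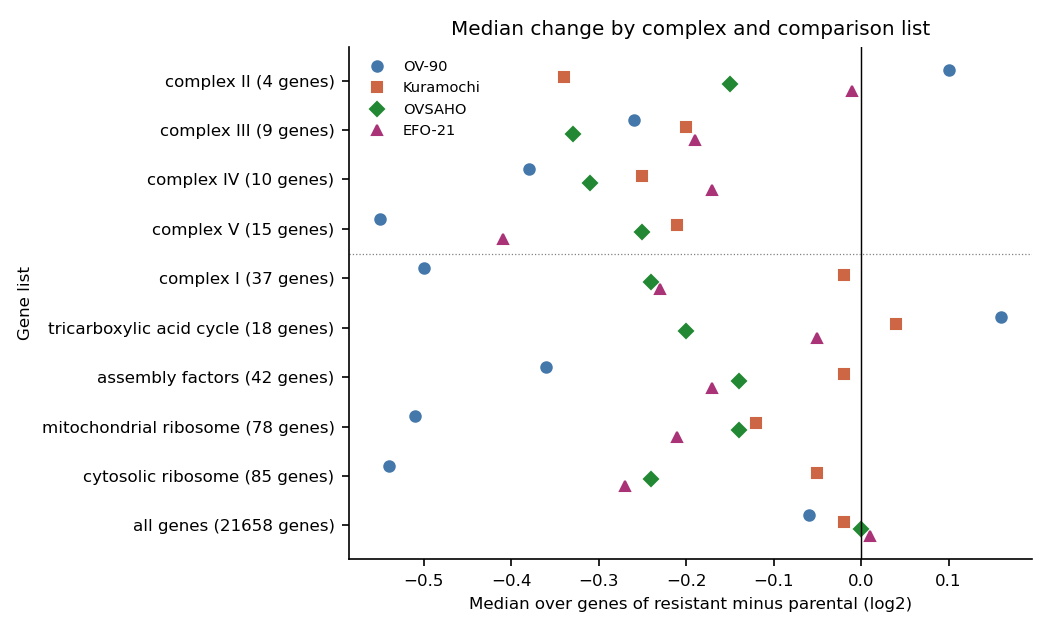
Median over genes of the resistant minus parental difference (log2) for complexes II to V and for comparison lists, with 1 symbol per line. Complex V lies at −0.55 to −0.21 and complex II at −0.34 to 0.10; complex I and both ribosome lists lie below 0 in every line, though complex I and the cytosolic ribosome in Kuramochi turned to 0.04 and 0.01 with the transcript length trend taken out.

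The 42 assembly factors of these complexes had medians of −0.36, −0.02, −0.14 and −0.17. UQCC3, which stabilises early complex III, was lower in OV-90 (−0.71), Kuramochi (−1.07) and OVSAHO (−0.37). COX20, which helps mature COX2, was lower in OV-90 (−0.92), Kuramochi (−0.56) and EFO-21 (−0.62), and SCO2, which delivers copper to COX2, in OV-90 (−1.51), OVSAHO (−0.53) and EFO-21 (−0.38). SDHAF1, needed for the iron-sulfur clusters of SDHB, was lower in Kuramochi (−0.98 ± 0.12, adjusted p = 0.00121) and EFO-21 (−0.24), while SDHAF3 was higher in the same lines (0.96 and 0.27).

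Among 12 further subunits and isoforms, the ATP synthase membrane genes ATP5MJ and ATP5MK were lower in OV-90 (−0.73 and −0.44), OVSAHO (−0.37 and −0.51) and EFO-21 (−0.67 and −0.96). COXFA4 (NDUFA4), a subunit of complex IV, was lower in Kuramochi, OVSAHO and EFO-21 (−0.47, −0.37 and −0.36). Its paralogue COXFA4L2 (NDUFA4L2), known as a hypoxia-induced gene, fell in EFO-21 from 6.64, 6.53 and 6.27 to 3.01, 3.25 and 3.88 (−3.10 ± 0.25, adjusted p = 0.000287). In Kuramochi it was lower as well (−0.96 ± 0.26, adjusted p = 0.0256). The tissue-restricted isoform COX7A1 fell in EFO-21 from 6.84, 6.97 and 7.12 to 4.42, 4.73 and 4.65 (−2.38 ± 0.12, adjusted p = 6.55e-05). It was also lower in Kuramochi, at low means of 2.92 in the parent and 0.74 in the resistant cells (−2.18 ± 0.53, adjusted p = 0.0168). COX7B2, a testis-type isoform, rose in OVSAHO from 4.30, 4.98 and 4.25 to 6.93, 6.66 and 6.31 (2.12 ± 0.26, adjusted p = 0.00236). ATP5IF1, the inhibitor of ATP hydrolysis by complex V, was higher in Kuramochi (0.45 ± 0.11, adjusted p = 0.0149) and lower in OVSAHO (−0.31 ± 0.05, adjusted p = 0.00471).

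Regulators of mitochondrial genes were counted too. Of 15 such genes, 0, 3, 4 and 5 were lower and 5, 3, 4 and 3 higher in OV-90, Kuramochi, OVSAHO and EFO-21. The shares of all genes were 17.9%, 23.3%, 16.2% and 23.4% lower and 18.1%, 23.6%, 17.1% and 25% higher. ESRRG, an orphan nuclear receptor, fell in Kuramochi from 5.28, 5.03 and 3.88 to 0.29, 0.25 and 0.21 (−4.48 ± 0.38, adjusted p = 0.000245). TFB1M, a methyltransferase of mitochondrial ribosomal RNA, was lower in EFO-21 (−1.40 ± 0.08, adjusted p = 9.87e-05) and OVSAHO (−0.35). MYC was higher in all 4 lines (0.80, 0.39, 0.30 and 0.55). ESRRA, an orphan nuclear receptor that works with PGC-1 coactivators on respiratory genes, was lower in Kuramochi (−0.62), OVSAHO (−0.42) and EFO-21 (−0.27), and at −0.16 in OV-90 (adjusted p = 0.147). NRF1 was lower in Kuramochi (−0.34 ± 0.08, adjusted p = 0.0182). It was at 0.14, −0.15 and −0.21 in OV-90, OVSAHO and EFO-21, where it did not pass. YY1 was higher in OV-90 (1.04), OVSAHO (0.31) and EFO-21 (0.40) and at 0.18 in Kuramochi, where it did not pass. GABPA was called only in OV-90, as higher (1.38 ± 0.16, adjusted p = 0.0122). HIF1A, the oxygen-regulated subunit of the hypoxia factor, was higher in OV-90, Kuramochi and OVSAHO (1.49, 0.62 and 0.61) and lower in EFO-21 (−0.23). TFAM, which packages and transcribes mitochondrial DNA, was higher in OV-90 (0.96) and Kuramochi (0.33) and lower in EFO-21 (−0.47).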

How the data were processed

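Parental and prexasertib-resistant cultures of 4 ovarian cancer cell lines were profiled in 23 libraries. Per the study's methods, total RNA was made into stranded mRNA libraries and sequenced in pairs, reads were aligned to GRCh37/hg19, and exons were dropped when over 80% of the samples had under 10 reads on them. Gene values were then summarised from exons and junctions by robust regression, as was the case for all 39 members. The deposited log2 values had been quantile normalized by the authors. The deposited file also holds the number and weights of exon features behind each value, of which the number of exons (3 to 41 for the members) was read only as a check. The table holds no counts, so depth is unknown, count-based tests could not be run, and the only measure of error is how far libraries of a group lie apart. The number of libraries limits it: 3 against 3 cannot reach an exact permutation p below 0.1. Columns belonging to other samples numbered 0.

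Members were matched by NCBI Gene ID. Symbols came from RefSeq for 20745 of 21658 genes (95.8%), and positions and lengths of the canonical transcript and protein from GENCODE on GRCh37. Lengths of transcripts follow the annotated canonical transcript, which for some members (8459 bases for UQCRB) carries a long untranslated end. Each line was fitted with limma 3.58.1 in R 4.3.3 (moderated by eBayes, with the prior variance following the mean, two-sided, Benjamini-Hochberg over all genes), with no pseudocount and no filter. The average over lines used the line as a block, and the interaction used 8 group means. The code was tested on simulated data. Labels call the libraries biological replicates. Members, gene lists and tests were chosen with earlier results of these data known, so no list was tested and no p-value was adjusted over a list alone.

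Values per library are given mainly for the lowest and highest member of each complex by mean difference, members called in one direction in at least 3 lines or in opposite directions, and members past 2-fold. From each comparison list, genes called in one direction in at least 3 lines or past 2-fold were ranked by mean difference. Names were taken from the first 4 per list, and some of these, such as FMC1 and RPS28, were left out. UQCRHL, LRRC41, NSUN4, SDHAF1, SDHAF3, ATP5MK, ATP5IF1, COXFA4, ESRRA, NRF1, GABPA, TFAM and YY1 were named after their values were seen. So were the pseudogenes COX6A1P2, SDHAP1, SDHAP2, SDHAP3 and SDHAP4. The protein and transcript length corrections were added after the data were seen. Alternatives were 1 fit of all libraries, no trend, only genes above the 25th percentile, recentring on abundant genes, a 2-fold minimum, leaving out each library, and removal of length trends.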

Additional observations from a re-analysis of the deposited data

Results flagged for a closer look

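For 6 of the 39 genes the resistant minus parental difference was called in opposite directions in different lines, and the interaction F test (limma, adjusted over all genes) passed for each of them. Since these genes were chosen by calls in the same libraries, this is no independent evidence, and the test passed for 34 of the 39 members and 75.1% of all genes. The adjusted p was 1.05e-07 for SDHA, which was higher in EFO-21 (0.56) and lower in OVSAHO (−0.16). It was 0.000164 for UQCRC2, higher in EFO-21 (0.14) and lower in OVSAHO (−0.29). COX7B had 1.05e-07, with a rise of 0.69 in Kuramochi and falls in the other 3 lines. COX8A had 8.19e-05, with a rise of 0.24 in EFO-21 and falls of 0.29 in Kuramochi and OVSAHO. For CYCS the value was 6.04e-06, from 0.56 in OV-90 to −0.69 in Kuramochi, and for ATP5F1B 9.59e-09, from 0.21 in Kuramochi to −0.78 in EFO-21.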

How the results depend on the processing

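No paired analysis was possible because the columns of the table carry no replicate numbers. Tests on counts were not run, since the table holds log2 values. With 1 library left out, the lower members numbered 0 to 26 in OV-90, 14 to 24 in Kuramochi, 22 to 28 in OVSAHO, 21 to 22 in EFO-21 and 24 to 28 on average, and the higher ones 0 to 4, 1 to 3, 0, 2 to 4 and 0. Lower members in OV-90 were 9 with no mean-variance trend. Higher members were 4 in OV-90 with all libraries in one fit, and 0 in OV-90 and 1 in Kuramochi with no trend. With a 2-fold minimum, lower members were 1, 1, 0 and 2 in OV-90, Kuramochi, OVSAHO and EFO-21, and higher members 0 in OV-90, Kuramochi and EFO-21.

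With the transcript length trend removed, OV-90 had 9 lower and 8 higher members, and the higher members were 6 in Kuramochi and 1 in OVSAHO. With the protein length trend removed, OV-90 had 8 lower and 3 higher, and the higher members were 6 in Kuramochi, 2 in OVSAHO, 6 in EFO-21 and 1 on average. Medians after the transcript correction were 0.47, −0.28, −0.04 and 0.10 for complex II in OV-90, Kuramochi, OVSAHO and EFO-21, 0.01 and −0.03 for complex III in OV-90 and EFO-21, 0.12, −0.20 and 0.00 for complex IV in OV-90, OVSAHO and EFO-21, −0.08 for complex V in OV-90, and 0.04 and −0.23 for cytochrome c in OV-90 and OVSAHO. After the protein correction they were 0.25, −0.10 and 0.07 for complex II in OV-90, OVSAHO and EFO-21, 0.01 and −0.04 for complex III in OV-90 and EFO-21, −0.01, −0.17 and 0.02 for complex IV in OV-90, OVSAHO and EFO-21, −0.17 for complex V in OV-90, and 0.94 and 0.22 for cytochrome c in OV-90 and EFO-21. Among the called differences of the members described per library, those that changed sign were UQCRH in OV-90 (0.14 by transcript and 0.04 by protein length), COX7C in OV-90 (0.16 and 0.12), COX6B1 in EFO-21 (0.01 and 0.03), and, by protein length, UQCR10 (0.07) and COX7B (0.04) in EFO-21. The cause was not tested. Without 1 library the medians ran 0.08 to 0.10 in OV-90, −0.40 to −0.30 in Kuramochi, −0.19 to −0.13 in OVSAHO, −0.04 to 0.01 in EFO-21 for complex II. They ran −0.39 to −0.21 in OV-90, −0.30 to −0.13 in Kuramochi, −0.35 to −0.31 in OVSAHO, −0.22 to −0.13 in EFO-21 for complex III. They ran −0.54 to −0.23 in OV-90, −0.35 to −0.17 in Kuramochi, −0.32 to −0.29 in OVSAHO, −0.19 to −0.12 in EFO-21 for complex IV. They ran −0.70 to −0.34 in OV-90, −0.39 to −0.14 in Kuramochi, −0.27 to −0.25 in OVSAHO, −0.45 to −0.34 in EFO-21 for complex V. They ran 0.32 to 0.80 in OV-90, −0.73 to −0.63 in Kuramochi, −0.15 to −0.02 in OVSAHO, −0.04 to 0.08 in EFO-21 for cytochrome c. Of the fits of named members without 1 library, 309 kept the call and 86 lost it. By line, the numbers kept and lost were 24 and 41 in OV-90, 74 and 22 in Kuramochi, 99 and 15 in OVSAHO and 112 and 8 in EFO-21.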
